A study of Mus musculus with 24 samples.

Results

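The genes described here are the mouse cytochrome P450 genes of families 1 to 4, other than Cyp2c. They were chosen by symbol alone, as Cyp followed by a family number from 1 to 4, a subfamily letter and a gene number, and no measured value entered the choice. The rule gave 53 genes of the 18820 that the array measured with a probe set of a single gene symbol, in 20 subfamilies. The 13 measured Cyp2c genes were left out. Another 4 symbols of these families end in a letter or mark a pseudogene and lie outside the rule, and 7 probe sets that name several P450 genes at once were fitted apart.

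Cytochromes P450 are haem enzymes, bound to the endoplasmic reticulum, that put an oxygen atom into drugs, pollutants, steroids, fatty acids and eicosanoids, using electrons passed on by P450 oxidoreductase and cytochrome b5. The liver is their main site, and hepatocytes near the central vein and near the portal tract hold different sets of them. Their transcription follows the ligand-activated receptors AhR, CAR, PXR and PPARalpha, and in mice some of them are higher in females or in males under the pattern of growth hormone release.

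The study examined JNK1 and JNK2, the stress kinases encoded by Mapk8 and Mapk9, in hepatocytes during liver injury and tumour formation, on a C57BL/6 background. Alb-Cre, expressed under the albumin promoter and so in hepatocytes, and in the cells of the bile ducts where they share a precursor, deletes the floxed genes. RNA of whole snap-frozen liver was measured in 8 groups of 3 livers, 1 array for each. Untreated NEMO/JNKΔhepa mice, which lack NEMO (a subunit that activates the IkB kinase), together with JNK1 and JNK2, were set against livers labelled control at 52 weeks of age. JNKΔhepa mice, which lack JNK1 and JNK2, were set against livers labelled control at 40 days after diethylnitrosamine (DEN), a carcinogen activated by P450 enzymes, and again at 28 days after bile duct ligation (BDL), which blocks the outflow of bile. Untreated NEMO/JNK1Δhepa mice were set against NEMOΔhepa mice at 8 weeks of age, so that both of those groups lack NEMO. Per the growth protocol, Jnk2 was lost in all cells of the JNKΔhepa mice, and both NEMOΔhepa and floxed NEMO mice are named as controls of the triple knockout, while the sample labels say only control. Neither the sex of the mice nor the ages of the treated mice were given. The mouse identifiers all differ, so replicates were separate animals.

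The deposited values are log2 levels per probe set, written below as log2 values without a further unit. Within groups, arrays correlated at 0.966 to 0.987 over all probe sets. The mean level of 11 measured hepatocyte markers lay between 12.08 and 12.47 in every liver. Mapk8 was at 5.41 to 6.41 in the 12 livers that lack JNK1, against 6.33 to 6.84 in the other 12, without overlap inside any of the 4 genotype pairs. Mapk9 was at 2.82 to 3.51 in all 18 livers of the 52-week, DEN and BDL groups, the 9 labelled control included, and at 7.99 to 8.53 in the 6 livers of the 8-week groups. Knockout and control values of Mapk9 overlapped at 52 weeks, after DEN and after BDL, so this probe set does not separate the knockouts from their controls there. Whether the mice labelled control in these groups carry a Jnk2 deletion was not given, and differences between these groups are not tied below to the loss of JNK2. Ikbkg, which encodes NEMO, was at 6.43 to 6.47 in the NEMO/JNKΔhepa livers and at 7.0 to 7.48 in their controls. In the NEMOΔhepa livers of the 8-week groups its mean lay above every NEMO/JNKΔhepa liver. The 8-week groups hold no liver with NEMO to be set against, so Ikbkg does not check the loss of NEMO there. Which exons these probe sets cover was not examined, so they check the labels only in part. In 1 liver the sex-linked genes went apart from all others. JNKΔhepa DEN liver 3 had Xist, the RNA of the inactive X chromosome, at 10.38, against 2.16 to 3.87 in the other 23 livers, and the Y-linked Eif2s3y at 2.80, against 6.61 to 7.96. The same liver had Cyp3a16 at 6.95 and Cyp2a22 at 9.27, the highest values of each among the 24 livers, and Cyp2d9 at 6.79, the lowest. Not every sex-biased P450 gene set this liver apart, as given with the DEN results. Results that rest on this liver are given below with and without it.

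**Figure D1:**
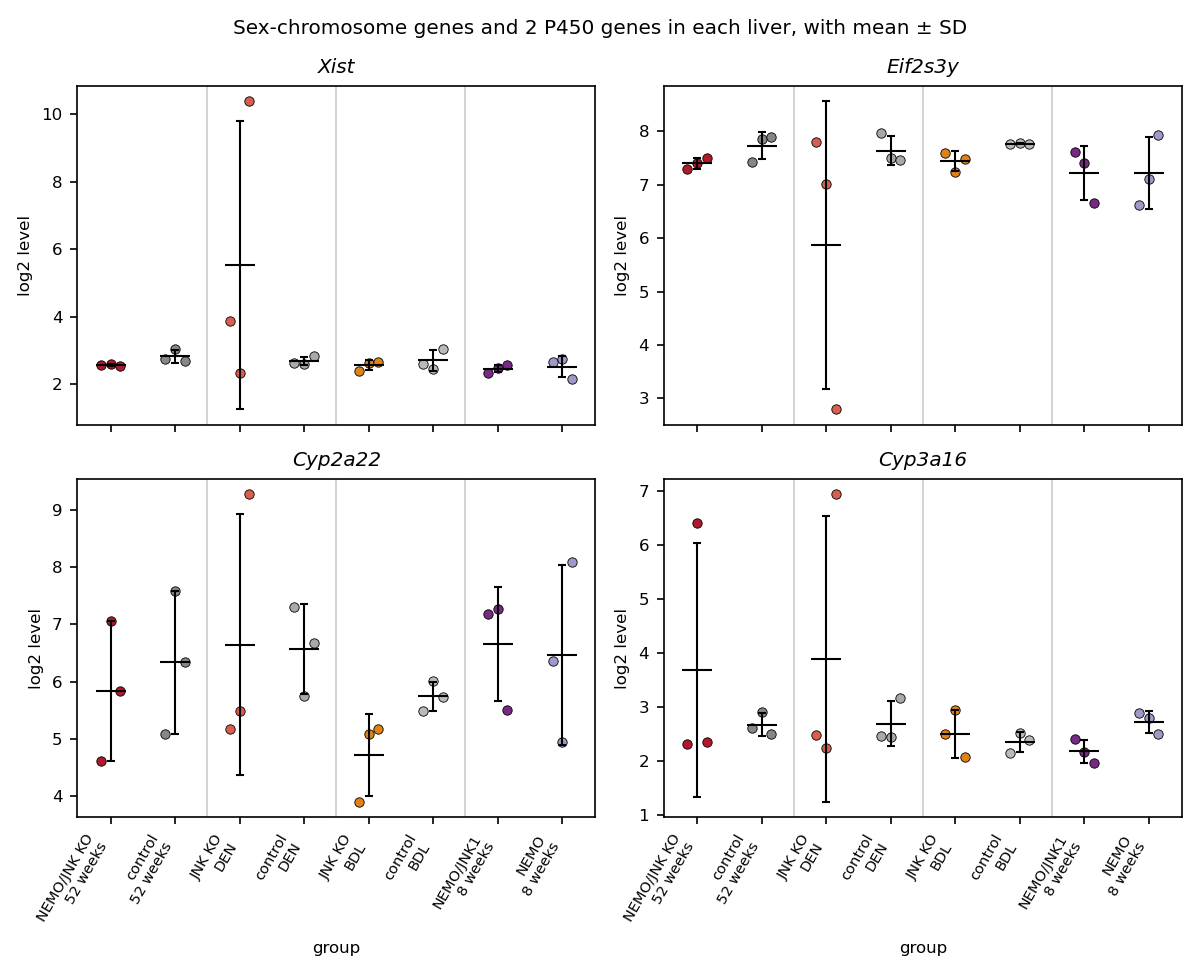
Level (log2, vertical axis) of Xist, Eif2s3y, Cyp2a22 and Cyp3a16 in each of the 24 livers, by group; each point is 1 liver, and the bars show the mean ± SD of 3. JNKΔhepa DEN liver 3 is the 1 point high in Xist, at 10.38, and low in Eif2s3y, at 2.80, and it has the highest Cyp2a22 and Cyp3a16.

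Of the 53 genes, 34 had a mean over the 24 livers at or above 4.59, the median over all probe sets, and 20 were at or above 8. Both Cyp4a genes, all 3 Cyp2a genes, 7 of 9 Cyp2d, 5 of 8 Cyp4f, 4 of 6 Cyp3a, 3 of 6 Cyp2j and 2 of 5 Cyp2b genes were among the 34. So were Cyp1a2, Cyp1b1, Cyp2e1, Cyp2f2, Cyp2r1, Cyp2s1, Cyp2u1 and Cyp4b1. The other 19 were Cyp1a1, Cyp2ab1, Cyp2b13, Cyp2b19, Cyp2b23, Cyp2d11, Cyp2d12, Cyp2g1, Cyp2j11, Cyp2j12, Cyp2j13, Cyp2t4, Cyp2w1, Cyp3a16, Cyp3a57, Cyp4f37, Cyp4f39, Cyp4f40 and Cyp4x1. These low values carry no detection call, and a probe set's level is comparable between livers but not with that of another probe set. Some genes hardly moved across the livers: Cyp2a12 lay between 11.03 and 11.80, Cyp2d26 between 11.45 and 12.27, and Cyp2d22 between 9.95 and 10.97. Others spread widely. Cyp2b9, a female-biased gene, ran from a lowest liver at 2.91 to a highest at 10.68. Cyp4a14, a fatty acid omega-hydroxylase gene driven by PPARalpha, lay between 4.79 and 12.07, and Cyp2s1, a P450 of epithelia, between 3.76 and 9.32. Cyp2b9 was at 5.56 to 10.68 in the 12 untreated livers of the 52-week and 8-week groups and at 2.91 to 5.30 in the 12 livers after DEN or BDL. Those groups differ in treatment, genotype and perhaps age at once, so the split is a description.

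**Figure D2:**
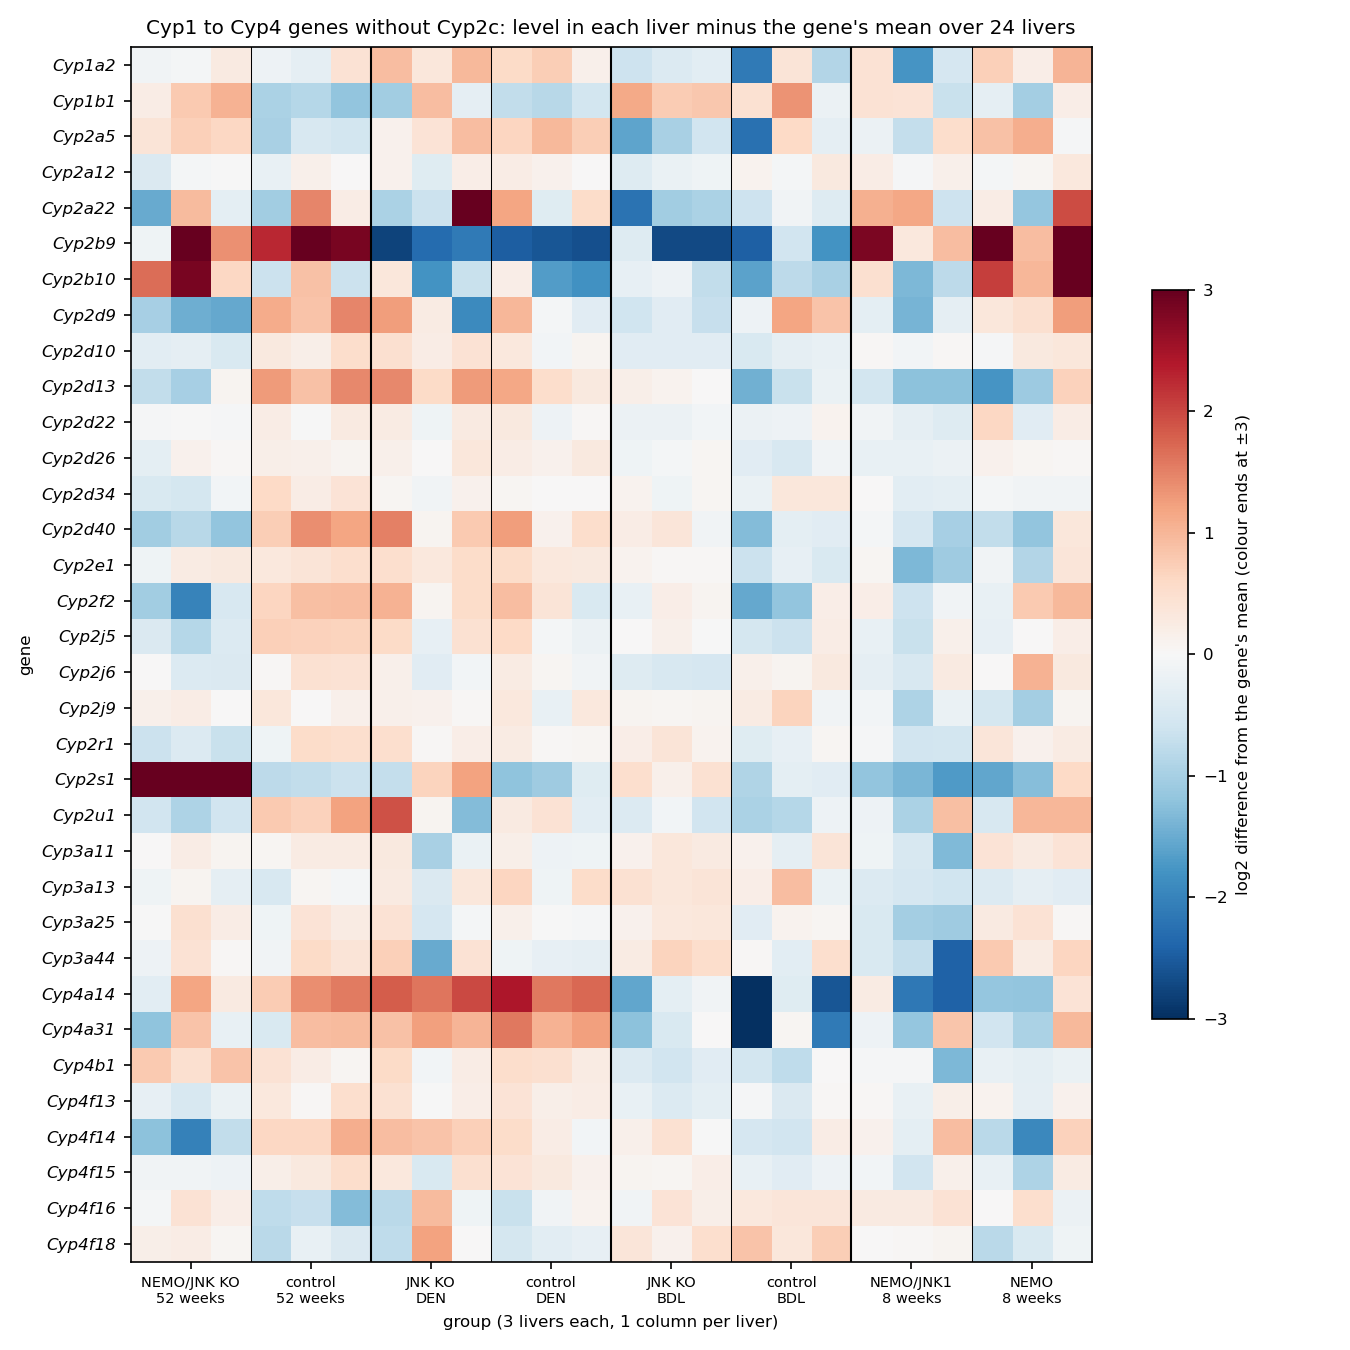
Heat map of the 34 P450 genes with a mean at or above 4.59 (down) in the 24 livers (across, by group); colour is a liver's log2 level minus that gene's mean over all 24 livers, with the ends of the scale at -3 and 3. Cyp2s1 is high in the NEMO/JNKΔhepa livers, the Cyp4a genes are low after BDL, and Cyp2b9 is low after DEN and BDL.

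At 52 weeks, the P450 genes of the NEMO/JNKΔhepa livers stood mostly below those of control livers, in a few subfamilies and by up to 5.56-fold, while Cyp2s1 was 18.8-fold higher. By limma with Benjamini-Hochberg adjustment over all genes, 22 of the 53 were called (41.5%, against 21.5% of all genes), of which 16 were lower (30.2%, against 7.9% of all genes) and 6 were higher (11.3%, against 13.6%). At an unadjusted p under 0.05, 23 were lower (43.4%, against 15.9% of all genes) and 7 higher (13.2%, against 19.5%), 30 in all (56.6%, against 35.4%). The median difference was -0.29 over the 53 genes and -0.05 over all genes. The genes that fell included the male-biased steroid hydroxylase gene Cyp2d9, the periportal Cyp2f2, the leukotriene hydroxylase gene Cyp4f14, the epoxygenase gene Cyp2j5 and the vitamin D hydroxylase gene Cyp2r1, whereas the main drug-metabolising P450s Cyp3a11, Cyp1a2 and Cyp2e1 did not pass the test. In RNA of whole liver, fewer cells of a type and less RNA per cell cannot be told apart. Arrays were also centred, by subtracting from each its median over the 18820 genes. This shifted every difference downwards alike. The median difference went from -0.05 to -0.37 over all genes and from -0.29 to -0.61 over the P450 genes. With arrays centred in this way, 31 P450 genes were lower (58.5%, against 47.5% of all genes) and 5 higher (9.43%, against 8.34%). Quantile normalization gave 14 lower (26.4%, against 12.9% of all genes) and 4 higher (7.55%, against 11.2%), so the share of calls that were lower depends on the scaling. Of the 22 calls, 12 held under every setting tried and 10 were lost under 1 or more.

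**Figure D3:**
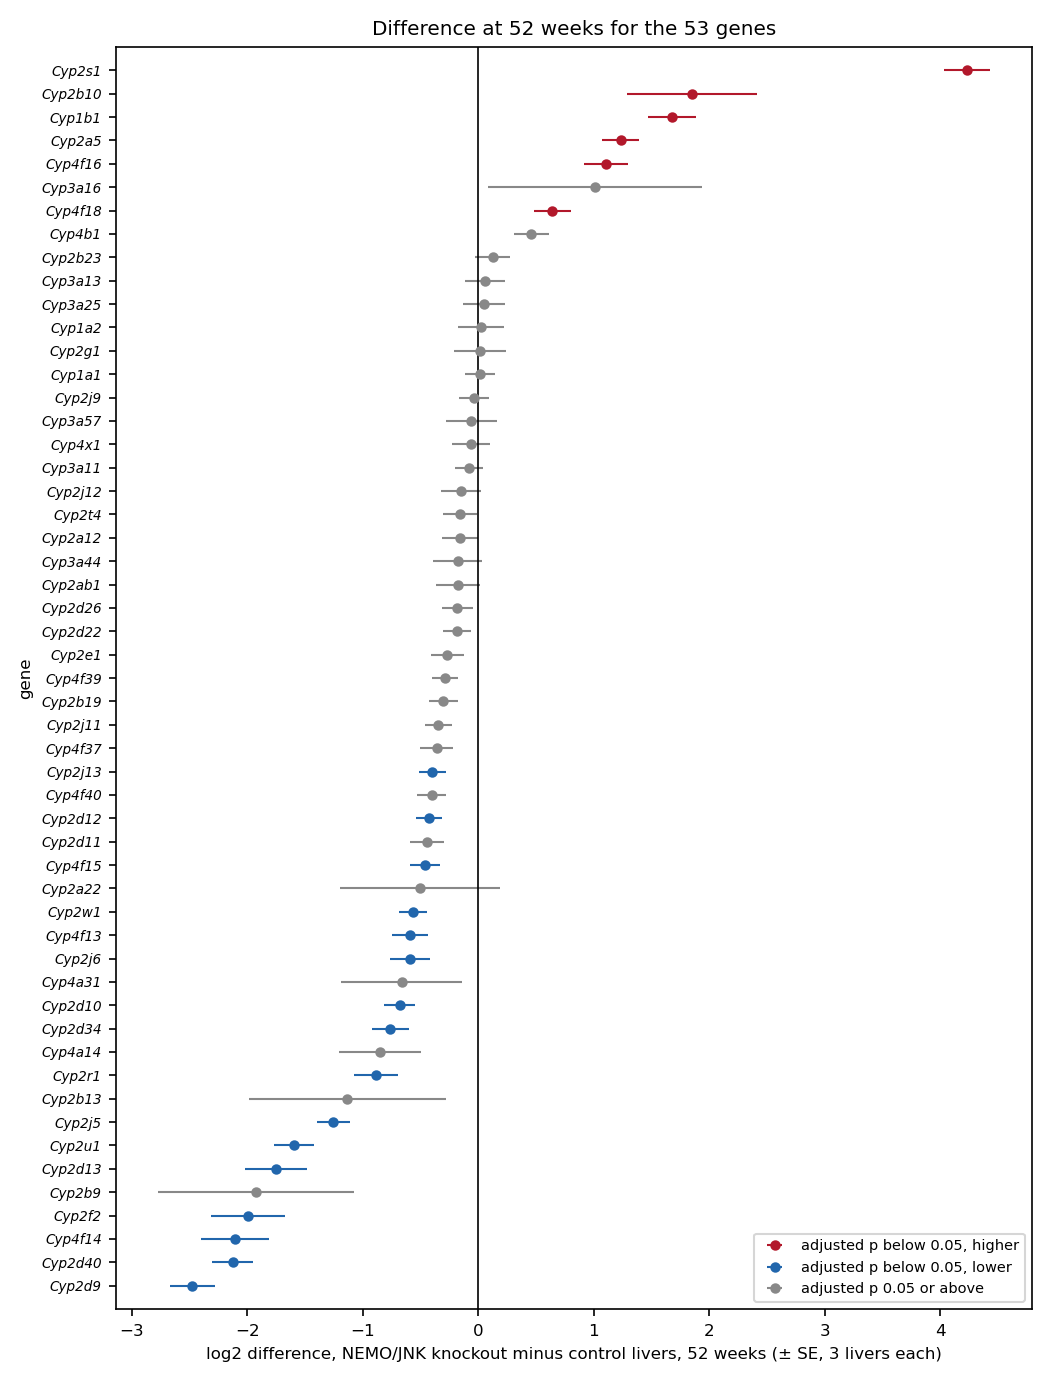
Difference in log2 level between NEMO/JNKΔhepa and control livers at 52 weeks (horizontal axis, ± SE, 3 livers in each group) for each of the 53 P450 genes, in order of the difference and coloured by call. Cyp2s1 stands alone on the right at 4.23, while Cyp2d9, Cyp2d40, Cyp4f14 and Cyp2f2 lie near or beyond -2.

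Family 1 holds the targets of AhR, the receptor for aromatic hydrocarbons. Cyp1b1, which oxidises oestradiol and is found mainly outside hepatocytes, was at 5.51, 6.09 and 6.33 in NEMO/JNKΔhepa livers, against 4.35, 4.44 and 4.10 in control livers. The groups did not overlap, and Cyp1b1 was 3.2-fold higher (1.68 ± 0.21 SE on the log2 scale, adjusted p = 0.000875 by limma). Its second, dimmer probe set was at 3.85, 3.84 and 3.98 in NEMO/JNKΔhepa livers and at 3.82, 4.14 and 3.90 in control livers, which overlap. With both probe sets averaged the difference was 0.81 and still passed. Cyp1a2, which oxidises caffeine and aromatic amines in the liver, averaged 11.11 ± 0.21 in NEMO/JNKΔhepa livers and 11.09 ± 0.38 in control livers (SD, n = 3 each), a difference of 0.03 ± 0.20 SE. Cyp1a1 differed by 0.02.

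In the Cyp2a and Cyp2b subfamilies 1 gene each rose. Cyp2a5, which hydroxylates coumarin and activates nitrosamines, was at 11.54, 11.87 and 11.78 in NEMO/JNKΔhepa livers, against 10.19, 10.68 and 10.61 in control livers. It was 2.35-fold higher (1.23 ± 0.16 SE, adjusted p = 0.00118 by limma), without overlap, and the call was lost only with all 24 arrays in one fit (adjusted p = 0.0837). Cyp2b10, the phenobarbital-inducible target of CAR, was at 7.36, 8.53 and 6.31 in NEMO/JNKΔhepa livers, against 5.04, 6.56 and 5.04 in control livers. Control liver 2 lay above NEMO/JNKΔhepa liver 3, so the groups overlapped. The difference of 1.85 ± 0.56 SE passed narrowly (adjusted p = 0.0466 by limma) and was lost without NEMO/JNKΔhepa liver 1 or 2 or control liver 1 or 3 (adjusted p of 0.101 to 0.146), with quantile normalization (0.0659), with all 24 arrays in one fit (0.079) and with a variance trend and robust estimation (0.15). Cyp2b9 was at 5.56, 8.78 and 7.07 in NEMO/JNKΔhepa livers and at 7.94, 10.68 and 8.54 in control livers, a difference of -1.92 ± 0.85 SE that was not called (adjusted p = 0.143), although it was without NEMO/JNKΔhepa liver 2 (-2.74, adjusted p = 0.0407). Cyp2a12, Cyp2a22, Cyp2b13, Cyp2b19 and Cyp2b23 did not pass the test.

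Cyp2d was the subfamily with the most calls, with 6 of 9 genes lower. In this family the male-biased Cyp2d9 encodes a testosterone 16-alpha-hydroxylase. Cyp2d9 was at 7.71, 7.25 and 7.18 in NEMO/JNKΔhepa livers, against 9.82, 9.57 and 10.17 in control livers. It was 5.56-fold lower (-2.47 ± 0.19 SE, adjusted p = 0.000114 by limma). Cyp2d40 was at 5.61, 5.80 and 5.46 in NEMO/JNKΔhepa livers, against 7.39, 8.04 and 7.83 in control livers, and was 4.36-fold lower (-2.13 ± 0.18 SE, adjusted p = 0.000161). The gap between the groups was wider than the whole range inside either group for both genes. Cyp2d13 was at 8.20, 7.94 and 9.02 in NEMO/JNKΔhepa livers, against 10.21, 9.82 and 10.38 in control livers, and was 3.37-fold lower (adjusted p = 0.00243). Cyp2d10 was at 9.0, 9.05 and 8.87 in NEMO/JNKΔhepa livers, against 9.60, 9.49 and 9.86 in control livers, 1.6-fold lower (-0.68 ± 0.13 SE, adjusted p = 0.00774). Cyp2d34 was lower by a log2 difference of -0.76 (adjusted p = 0.0102). These 5 calls held under every setting tried. The dim Cyp2d12, at 2.25 to 2.38 in NEMO/JNKΔhepa livers and 2.63 to 2.78 in control livers, was called at adjusted p = 0.0286, and its call was lost without NEMO/JNKΔhepa liver 1 or 3 or control liver 1 or 3 (adjusted p of 0.0529 to 0.101), with quantile normalization (-0.28, adjusted p = 0.0924), with all 24 arrays in one fit (0.532) and with the replicate number as a block (0.0632). Cyp2d22 and Cyp2d26 differed by -0.18 each and Cyp2d11 by -0.44, and did not pass. With arrays centred on the median, all of these passed as lower (adjusted p of 0.0062 to 0.02). Near-identical Cyp2d genes can share hybridisation, which was not tested.

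The Cyp2d promoters are shown because genes that were called and genes that were not lie side by side on chromosome 15. RefSeq promoter windows of build GRCm38.p6, from 250 bases before to 50 after each start site, were found for 44 of the 53 genes, and both strands were searched for 7 short motifs. A direct repeat of AGGNCA spaced by any 1 base, the form bound by HNF4alpha and by PPARalpha with its partner RXR, occurred in 125 of all 32851 windows (0.381%). Among the 44 genes with a window it occurred in those of Cyp2d9, Cyp2d10 and Cyp2d40, all of them lower at 52 weeks. Cyp2d12, Cyp2d13 and Cyp2d34, also called lower, and Cyp2d22, not called, had no window and were not searched. With the start site counted as 0, it spans -54 to -42 in Cyp2d9, at chr15:82452127-82452426 on the plus strand, and -57 to -45 in Cyp2d10, at chr15:82407145-82407444 on the minus strand. In Cyp2d40, at chr15:82764073-82764372 on the minus strand, it spans -117 to -105 and, on the reverse strand, 32 to 44. In Cyp2d11, at chr15:82393973-82394272 on the minus strand, which is dim and did not pass the test, the matching stretch differs from the Cyp2d9 repeat by G3A, counted from 1 at the 5′ end of the repeat. Capitals mark the repeat, and in Cyp2d11 the altered stretch, in the windows written 5′ to 3′ on the gene's strand.
Cyp2d9: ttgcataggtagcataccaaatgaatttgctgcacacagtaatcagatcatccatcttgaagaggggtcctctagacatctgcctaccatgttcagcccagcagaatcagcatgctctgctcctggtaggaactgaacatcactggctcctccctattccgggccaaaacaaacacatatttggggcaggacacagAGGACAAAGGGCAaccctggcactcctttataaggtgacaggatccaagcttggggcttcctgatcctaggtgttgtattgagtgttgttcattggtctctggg
Cyp2d10: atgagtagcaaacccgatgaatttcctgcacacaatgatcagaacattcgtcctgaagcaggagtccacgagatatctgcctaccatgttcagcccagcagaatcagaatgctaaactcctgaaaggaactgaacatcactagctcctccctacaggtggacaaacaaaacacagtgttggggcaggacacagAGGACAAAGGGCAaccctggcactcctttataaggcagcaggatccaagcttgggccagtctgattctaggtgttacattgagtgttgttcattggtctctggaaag
Cyp2d40: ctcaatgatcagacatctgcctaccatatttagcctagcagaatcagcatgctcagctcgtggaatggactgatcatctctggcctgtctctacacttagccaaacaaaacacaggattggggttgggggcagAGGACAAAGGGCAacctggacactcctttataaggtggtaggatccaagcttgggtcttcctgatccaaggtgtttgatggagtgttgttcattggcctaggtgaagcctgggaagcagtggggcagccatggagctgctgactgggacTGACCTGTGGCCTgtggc
Cyp2d11: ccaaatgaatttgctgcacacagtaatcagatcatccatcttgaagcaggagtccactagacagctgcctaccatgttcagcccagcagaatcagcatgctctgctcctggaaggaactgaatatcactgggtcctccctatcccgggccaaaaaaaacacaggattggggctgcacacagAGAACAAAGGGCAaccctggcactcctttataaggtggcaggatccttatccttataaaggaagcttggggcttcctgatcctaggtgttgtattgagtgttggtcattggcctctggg
Identity was counted over all aligned columns, with gaps as differences. The Cyp2d9 window was 82.9% identical to that of Cyp2d10, 84.5% to that of Cyp2d11 and 53.4% to that of Cyp2d40. The Cyp2d40 window is offset: TATAAA spans -91 to -86 there and -28 to -23 in Cyp2d9. That alignment took 363 columns for windows of 300 bases, so its gaps lower the 53.4%, which does not measure how far the promoters diverged. Cyp2d26, whose level hardly varied, holds no exact match to the repeat in its window. A near match lies before its TATAAA, with the G3A change of Cyp2d11 and a further change. Cyp2d11 and Cyp2d26 are weak contrasts, because both passed as lower at 52 weeks with centred arrays (adjusted p = 0.0062 and 0.02 by limma). Cyp2d11 also passed with all 24 arrays in one fit (0.0409) and without control liver 2 (0.0183). Whether the repeat goes with lower levels was not tested. The HNF4-type site CAAAGTCCA, in 0.475% of all windows, occurred in Cyp3a11 and Cyp3a16, neither of which passed the test at 52 weeks. The other 5 motifs are common: TATAAA occurred in 13.6% of all windows and in those of 15 P450 genes, the AhR core GCGTG in 32.4% and 12, the STAT5-type TTCNNNGAA in 8.3% and 4, GTTAAT, part of the HNF1 site, in 7.1% and 4, and the AP-1 site TGACTCA in 5.2% and 3. A match is a description of letters and not of binding.

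Cyp2f2, known for activating naphthalene and for its place in periportal hepatocytes, was at 10.33, 9.37 and 10.89 in NEMO/JNKΔhepa livers, against 12.02, 12.27 and 12.28 in control livers. It was 3.99-fold lower (-1.99 ± 0.32 SE, adjusted p = 0.00313 by limma), without overlap and under every setting. Cyp2f2 is also a marker of lung club cells, whose secretory gene Scgb1a1 was at 2.04 to 2.60 in all 24 livers. The pericentral Cyp2e1, which oxidises ethanol and activates DEN, was at 12.16, 12.54 and 12.59 in NEMO/JNKΔhepa livers and at 12.61, 12.68 and 12.79 in control livers. That difference of -0.27 did not pass (adjusted p = 0.219), although it did with arrays centred on the median (-0.59, adjusted p = 0.0124).

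The Cyp2j enzymes turn arachidonic acid into epoxides, and 3 of 6 Cyp2j genes were lower. Cyp2j5 was at 10.19, 9.78 and 10.21 in NEMO/JNKΔhepa livers, against 11.33, 11.31 and 11.30 in control livers, and was 2.38-fold lower (-1.25 ± 0.14 SE, adjusted p = 0.00062 by limma) under every setting. Cyp2j6 was at 8.44, 8.02 and 7.99 in NEMO/JNKΔhepa livers, against 8.47, 8.89 and 8.86 in control livers (-0.59, adjusted p = 0.039). NEMO/JNKΔhepa liver 1 and control liver 1 of Cyp2j6 nearly met, and its call was lost without NEMO/JNKΔhepa liver 2 or 3 or control liver 2 or 3 (adjusted p of 0.109 to 0.133), with all 24 arrays in one fit (0.0715) and with the replicate block (0.0753). The dim Cyp2j13 differed by -0.40 (adjusted p = 0.0414), which was lost without any 1 of the NEMO/JNKΔhepa livers or without control liver 1 or 3 (adjusted p of 0.0792 to 0.12), with quantile normalization (0.124) and with the replicate block (0.0725). Cyp2j9 differed by -0.03, and Cyp2j11 and Cyp2j12 did not pass either. The dim Cyp2j11 (-0.34, adjusted p = 0.0697) did pass with all 24 arrays in one fit (0.0262) and with arrays centred on the median (0.00404).

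Among the single-gene subfamilies, Cyp2s1, which acts on retinoids and eicosanoids in epithelia, was at 9.32, 8.49 and 9.07 in NEMO/JNKΔhepa livers, against 4.66, 4.71 and 4.81 in control livers. It averaged 8.96 ± 0.43 in NEMO/JNKΔhepa livers and 4.73 ± 0.08 in control livers (SD, n = 3 each), a difference of 4.23 ± 0.20 SE (adjusted p = 1.88e-05 by limma). All 3 NEMO/JNKΔhepa livers stood above every other liver of the study in this gene. Cyp2u1, a fatty acid omega-hydroxylase gene, was at 6.07, 5.73 and 6.06 in NEMO/JNKΔhepa livers, against 7.43, 7.34 and 7.86 in control livers. It was 3.02-fold lower (adjusted p = 0.000437) and lost its call only with all 24 arrays in one fit (adjusted p = 0.0584). Cyp2r1, a vitamin D 25-hydroxylase gene, was at 6.45, 6.69 and 6.44 in NEMO/JNKΔhepa livers, against 6.98, 7.64 and 7.61 in control livers, 1.85-fold lower (adjusted p = 0.0108) under every setting. The dim Cyp2w1 differed by -0.56 (adjusted p = 0.0124, and 0.0501 without NEMO/JNKΔhepa liver 1). Cyp2ab1, Cyp2g1, Cyp2t4 and Cyp4x1 did not pass, with differences from -0.18 to 0.02.

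**Figure D4:**
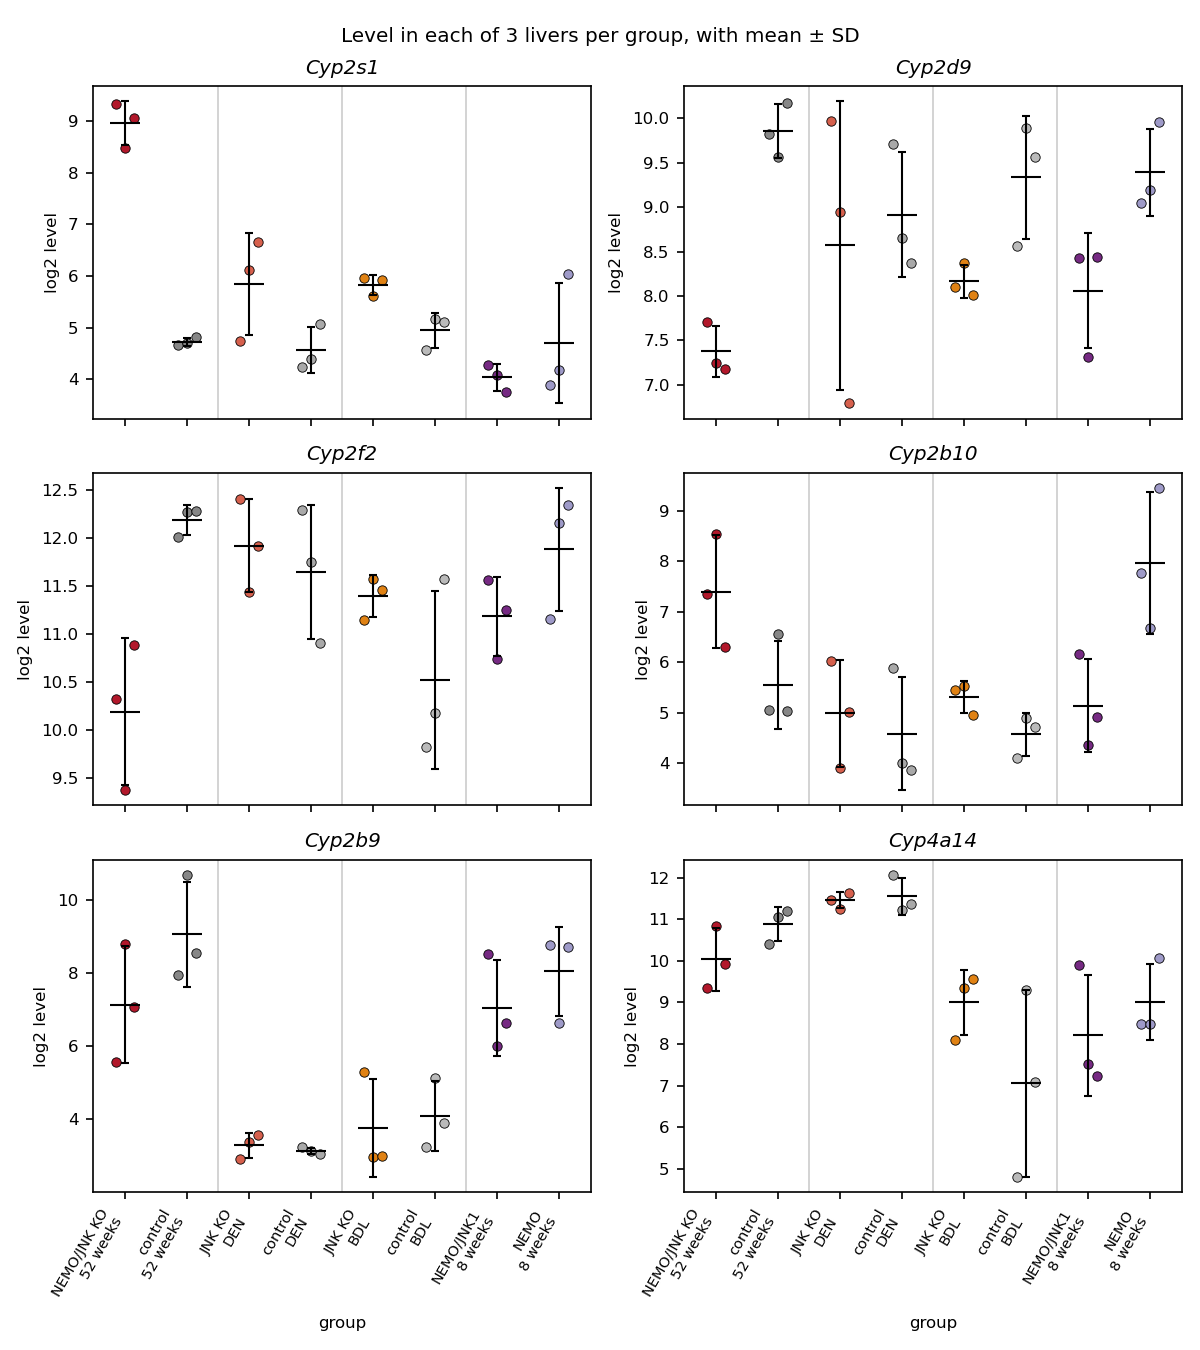
Level (log2, vertical axis) of Cyp2s1, Cyp2d9, Cyp2f2, Cyp2b10, Cyp2b9 and Cyp4a14 in the 8 groups; points are livers and bars show the mean ± SD of 3. Cyp2s1 averages 8.96 in NEMO/JNKΔhepa livers and 4.73 in their controls, Cyp2d9 averages 7.38 and 9.85 in the same groups, and Cyp4a14 in control livers averages 7.05 after BDL and 11.56 after DEN.

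The Cyp3a subfamily carries much of the liver's drug oxidation under PXR, and at 52 weeks 0 of its 6 genes were called by limma and 0 had an unadjusted p under 0.05. Cyp3a11 averaged 11.95 ± 0.10 in NEMO/JNKΔhepa livers and 12.03 ± 0.10 in control livers (SD, n = 3 each), a difference of -0.08 ± 0.12 SE (adjusted p = 0.657). Centring the arrays gave -0.41 for Cyp3a11 with an adjusted p of 0.028. Cyp3a13, Cyp3a25, Cyp3a44 and Cyp3a57 differed by -0.18 to 0.06. Cyp3a16, a gene of female and fetal liver, was at 2.33, 6.41 and 2.35 in NEMO/JNKΔhepa livers and at 2.62, 2.92 and 2.51 in control livers, so its difference of 1.01 came from NEMO/JNKΔhepa liver 2.

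Family 4 works on fatty acids and eicosanoids. In Cyp4f, 3 of 8 genes were lower and 2 higher. Cyp4f14, whose enzyme inactivates leukotriene B4, was at 7.56, 6.77 and 8.05 in NEMO/JNKΔhepa livers, against 9.41, 9.41 and 9.88 in control livers. It was 4.31-fold lower (-2.11 ± 0.29 SE, adjusted p = 0.00157 by limma) under every setting. Cyp4f13 and Cyp4f15 differed by -0.59 and -0.46 (adjusted p = 0.025 and 0.034). The call of Cyp4f13 was lost without any 1 of the NEMO/JNKΔhepa livers or control liver 1 or 3 (adjusted p of 0.0508 to 0.081), and that of Cyp4f15 without any 1 of the NEMO/JNKΔhepa livers or control liver 2 or 3 (0.0672 to 0.108), with all 24 arrays in one fit (0.197) and with the replicate block (0.0601). Cyp4f16 was at 6.11, 6.60 and 6.36 in NEMO/JNKΔhepa livers, against 5.40, 5.48 and 4.87 in control livers, and was 2.15-fold higher (1.11 ± 0.19 SE, adjusted p = 0.00431) under every setting. Cyp4f18, a leukotriene B4 hydroxylase gene of leukocytes, was at 5.08, 5.13 and 4.96 in NEMO/JNKΔhepa livers, against 4.09, 4.69 and 4.46 in control livers (0.64 ± 0.16 SE, adjusted p = 0.0221), and was lost without any 1 of the NEMO/JNKΔhepa livers or control liver 3 (adjusted p of 0.0516 to 0.0653), with quantile normalization (0.136), with all 24 arrays in one fit (0.153) and with arrays centred on the median, where the difference was 0.32 (0.108). The Cyp4f genes thus moved in both directions. Cyp4f37, Cyp4f39 and Cyp4f40, all dim, differed by -0.29 to -0.40 and did not pass. Cyp4f40 (adjusted p = 0.0511) did pass with all 24 arrays in one fit (0.0333), with the mean of all probe sets (0.0499) and without control liver 1 (0.0447). Cyp4f37 passed without NEMO/JNKΔhepa liver 2 (0.0399). Each of these genes passed as lower with arrays centred on the median (0.00394 to 0.00901). Cyp4a14 was at 9.34, 10.84 and 9.93 in NEMO/JNKΔhepa livers and at 10.41, 11.05 and 11.20 in control livers (-0.85 ± 0.35 SE, adjusted p = 0.123). It passed without NEMO/JNKΔhepa liver 2 (-1.25, adjusted p = 0.0153). Cyp4a31 (-0.66, adjusted p = 0.395) and Cyp4b1 (0.46, adjusted p = 0.0592) were not called, although Cyp4b1 was without NEMO/JNKΔhepa liver 2 (adjusted p = 0.0372) or control liver 1 (0.045).

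Grouped by what is known of their control, 1 of 3 AhR targets was higher, 1 of 7 CAR and PXR targets was higher, and 0 of 2 measured PPARalpha targets were called by limma, with 1 at an unadjusted p under 0.05. Both male-biased genes, Cyp2d9 and Cyp2d10, were lower, while 0 of 4 measured female-biased genes were called by limma and 0 had an unadjusted p under 0.05. Of those 4, Cyp2b13 and Cyp3a16 are dim. Over all genes 7.9% were lower and 13.6% higher, and these lists are short. Of 10 measured eicosanoid and leukotriene P450 genes, 6 were lower and 2 higher. The median difference was 0.05 for the CAR and PXR targets and -0.43 for the eicosanoid group, beside -0.05 for all genes. Of 3 pericentral genes 1, Cyp2a5, was higher, and the 1 periportal gene and the 1 vitamin D gene were lower. Outside the naming rule, the male-biased Cyp4a12a was at 8.62, 6.46 and 8.39 in NEMO/JNKΔhepa livers, against 10.69, 10.73 and 10.95 in control livers, 7.82-fold lower (adjusted p = 0.00309 by limma, and 0.175 with all 24 arrays in one fit). Cyp4a12b was 3.19-fold lower (adjusted p = 0.0376), a call lost without NEMO/JNKΔhepa liver 3 or any 1 of the control livers (adjusted p of 0.0554 to 0.113), with quantile normalization (0.0606), all 24 arrays in one fit (0.432) or a variance trend and robust estimation (0.134).

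Some genes that supply and regulate P450 enzymes were also called at 52 weeks, when 7.9% of all genes were lower and 13.6% higher. Of 9 measured receptors and partners, 2 were lower and 1 higher. Nr1h4, the bile acid receptor FXR, was at 8.53, 8.45 and 8.96 in NEMO/JNKΔhepa livers, against 9.57, 9.63 and 9.54 in control livers (-0.93, adjusted p = 0.00314 by limma), and its call held under every setting. Ppara differed by -0.54 (adjusted p = 0.021), lost without NEMO/JNKΔhepa liver 1 or 3 or control liver 1 or 3 (adjusted p of 0.055 to 0.0796). Ahr differed by 0.48 (adjusted p = 0.0446), lost without any 1 of the NEMO/JNKΔhepa livers or control liver 2 or 3 (adjusted p of 0.0948 to 0.132), with quantile normalization (0.0532), all 24 arrays in one fit (0.0812) or the replicate block (0.0581), and with arrays centred on the median, where the difference was 0.16 (0.398). Nr1i2, which encodes PXR, differed by -0.11 and did not pass, and Nr1i3, which encodes CAR, was not among the genes with a probe set of its own.

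Of 4 measured electron donor genes, Cyb5b, a cytochrome b5 of the outer mitochondrial membrane, was lower, beside 7.9% of all genes. It was at 8.45, 8.92 and 8.82 in NEMO/JNKΔhepa livers, against 10.12, 10.31 and 10.27 in control livers (-1.51, adjusted p = 0.00031 by limma). Of 10 measured haem genes, 2 were higher and 3 lower, beside 13.6% and 7.9% of all genes. Alas1, the rate-limiting enzyme of haem synthesis, was at 11.56, 11.77 and 11.23 in NEMO/JNKΔhepa livers, against 10.12, 10.70 and 10.08 in control livers (1.22 ± 0.20 SE, adjusted p = 0.0035). Hmox1, which breaks haem down, was higher too (1.29, adjusted p = 0.0127, and 0.126 with all 24 arrays in one fit). Of the synthesis enzymes, Urod was lower (-0.66, adjusted p = 0.00448), and so were Uros (-0.47, adjusted p = 0.0341) and Cpox (-0.51, adjusted p = 0.0448). The Uros call was lost without any 1 of the NEMO/JNKΔhepa livers or control liver 2 or 3 (adjusted p of 0.0512 to 0.108), and the Cpox call without NEMO/JNKΔhepa liver 1 or 3 or control liver 2 or 3 (0.117 to 0.146). Both were also lost with all 24 arrays in one fit (Uros 0.0565, Cpox 0.184), Uros with the replicate block (0.0579) and Cpox with quantile normalization (0.0649).

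Of 10 measured genes of growth hormone control, 4 were lower, beside 7.9% of all genes. Ghr, the growth hormone receptor gene, was at 9.30, 9.10 and 9.25 in NEMO/JNKΔhepa livers, against 10.44, 10.48 and 10.65 in control livers (-1.31, adjusted p = 0.000229 by limma). Igf1 was lower as well (-1.02, adjusted p = 0.00376). Stat5a and Stat5b, the transcription factors downstream of the receptor, differed by -0.49 and -0.54 (adjusted p = 0.0205 and 0.0274), and both calls were lost without NEMO/JNKΔhepa liver 2 or 3 or control liver 3 (adjusted p of 0.0574 to 0.0899).

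Markers of other cell types moved at the same time, beside 13.6% of all genes higher and 7.9% lower. All 8 measured biliary epithelium markers were higher, and their mean level was 8.00 to 8.65 in NEMO/JNKΔhepa livers, against 4.60 to 5.27 in control livers. Krt19, the bile duct keratin, was at 9.84, 8.94 and 9.61 in NEMO/JNKΔhepa livers, against 4.55, 5.44 and 5.19 in control livers. Of the macrophage markers 5 of 6 were higher (mean level 8.96 to 9.85 in NEMO/JNKΔhepa livers, against 7.92 to 8.40 in control livers), as were all 3 T cell markers (5.45 to 6.32, against 4.25 to 5.13). Of 11 measured hepatocyte markers 1, Otc, was lower, with a mean level of 12.29 to 12.35 in NEMO/JNKΔhepa livers and 12.19 to 12.47 in control livers. Of 6 stellate cell markers 1, Lrat, was lower, and of 3 kidney or intestine markers Vil1 was higher (1.46, a call lost with all 24 arrays in one fit, adjusted p = 0.154, as was that of the biliary Sox9, 0.0943). Of 3 endothelial markers and 1 B cell marker 0 were called by limma, with 1 endothelial marker at an unadjusted p under 0.05. The call of the macrophage marker Adgre1 was lost without NEMO/JNKΔhepa liver 2 or 3 or any 1 of the control livers, and those of the T cell markers Cd3e and Cd3g without NEMO/JNKΔhepa liver 1 or 3 or control liver 2 or 3 (adjusted p of 0.0607 to 0.129). With quantile normalization Adgre1 (0.0692) and Cd3e (0.0582) were lost, and Adgre1 also with centred arrays (0.0827), all 24 arrays in one fit (0.119) and a variance trend (0.0761). The part of these cells in the changes of Cyp2s1, Cyp1b1, Cyp4f16, Cyp4f18 and the lower P450 genes was not tested.

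After DEN, the P450 genes of JNKΔhepa livers did not separate from those of control livers. By limma, 0 of the 53 were called in either direction (0% of all genes), and 2 had an unadjusted p under 0.05 (3.77%, against 4.15% of all genes), both higher (1.45% of all genes), and 0 were lower (2.7%). Cyp4f14 was at 9.71, 9.64 and 9.51 in JNKΔhepa DEN livers, against 9.35, 9.0 and 8.70 in control DEN livers, a difference of 0.60 ± 0.18 SE with an adjusted p of 0.985. The groups did not overlap for Cyp4f14. Cyp2s1 was at 4.74, 6.11 and 6.67 in JNKΔhepa DEN livers and at 4.24, 4.39 and 5.08 in control DEN livers (1.27 ± 0.49 SE, adjusted p = 0.985). The mean level of the biliary markers was 5.18 to 7.40 in JNKΔhepa DEN livers and 4.80 to 5.55 in control DEN livers, ranges that overlap, with 0 of 8 called by limma. The part of such cells in the Cyp2s1 values was not tested.

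Several P450 genes after DEN turned on JNKΔhepa liver 3, the one with high Xist. Cyp2d9 was at 9.97, 8.95 and 6.79 in JNKΔhepa DEN livers and at 9.71, 8.66 and 8.38 in control DEN livers. Its difference was -0.34 with liver 3 and 0.54 without it. Cyp2a22 was at 5.18, 5.48 and 9.27 in JNKΔhepa DEN livers and at 7.30, 5.75 and 6.67 in control DEN livers, a difference of 0.07 with liver 3 and -1.24 without it. Cyp3a16 was at 2.49, 2.25 and 6.95 in JNKΔhepa DEN livers and at 2.47, 2.44 and 3.18 in control DEN livers, 1.20 with liver 3 and -0.33 without it. The Cyp4a12 genes outside the rule behaved in the same liver as Cyp2d9 did, with Cyp4a12a at 4.05 against 11.10 and 10.72 in the other JNKΔhepa DEN livers. A probe set that names Cyp3a41a, Cyp3a41b, Cyp3a44 and Cyp3a11 together was at 12.43 in liver 3. In the other JNKΔhepa DEN livers it was at 10.19 and 8.52. Another probe set with the same names was at 12.44 in liver 3, against 10.05 and 8.42. The other listed sex-biased genes moved less. With and without liver 3, the female-biased Cyp2b9 differed by 0.15 and 0.01 and Cyp2b13 by 0.17 and 0.19. Likewise, Cyp3a44 differed by 0.08 and -0.20, and the male-biased Cyp2d10 by 0.27 and 0.24. Without liver 3, the Cyp2s1 difference was 0.86, that of Cyp4f14 was 0.66 and that of Cyp2a5 was -0.52, and 0 of the 53 genes passed.

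After BDL, 1 P450 gene was lower in JNKΔhepa livers (1.89%, against 0.558% of all genes) and 0 were higher by limma (0.797% of all genes). Cyp2j6 was at 8.04, 7.94 and 7.93 in JNKΔhepa BDL livers, against 8.59, 8.50 and 8.73 in control BDL livers. It was 1.55-fold lower (-0.63 ± 0.11 SE, adjusted p = 0.0343), and the groups were apart by more than either group's range. The call was lost without any 1 of the JNKΔhepa BDL livers or without control BDL liver 1 (adjusted p of 0.105 to 0.16). Control BDL livers 1 and 2 carry another mouse identifier prefix than control BDL liver 3 and all JNKΔhepa BDL livers, and what the prefix stands for was not given. With the prefix as a block, livers 1 and 2 drop out of the contrast, which sets control BDL liver 3 alone against the JNKΔhepa BDL livers. Results with this block therefore cannot show an effect of the prefix. With the prefix as a block Cyp2j6 differed by -0.76 (adjusted p = 0.0788), so the call was lost, as it was with all 24 arrays in one fit (0.274) and with the replicate block (0.0952). At an unadjusted p under 0.05, 11 P450 genes were higher (20.8%, against 7.68% of all genes) and 4 lower (7.55%, against 6.93%). The 11 higher genes became 3 with the prefix as a block (against 6.57% of all genes), 6 without control BDL liver 1 (6.51%) or JNKΔhepa BDL liver 2 (6.09%), 5 with all 24 arrays in one fit (4.76%), and 18 without control BDL liver 3 (8.87%). The median difference was 0.14 over the 53 genes and -0.00 over all genes, but 0.01 over the 53 genes with the prefix as a block, under which 13 of them turned sign, and 0.04 without control BDL liver 1.

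After Cyp2j6, the P450 genes with the smallest unadjusted p in this comparison were Cyp2s1 and the pericentral Cyp2e1. Cyp2s1 was at 5.96, 5.61 and 5.91 in JNKΔhepa BDL livers, against 4.56, 5.17 and 5.11 in control BDL livers (0.88 ± 0.18 SE, adjusted p = 0.0718 by limma). Cyp2e1 was at 12.39, 12.33 and 12.32 in JNKΔhepa BDL livers, against 11.65, 12.04 and 11.83 in control BDL livers (0.51 ± 0.12 SE, adjusted p = 0.105). Neither gene's groups overlapped. Cyp4f15 differed by 0.36 (adjusted p = 0.163). The male-biased Cyp2d9 was at 8.10, 8.37 and 8.01 in JNKΔhepa BDL livers and at 8.56, 9.89 and 9.56 in control BDL livers (-1.17 ± 0.31 SE, adjusted p = 0.127), and passed without control BDL liver 1 (-1.56, adjusted p = 0.0169). Without control BDL liver 3, Cyp2d13 (adjusted p = 0.0399), Cyp2f2 (0.0117) and Cyp2j5 (0.0374) passed as higher.

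Of the receptors, electron donors, haem genes and growth hormone genes, 0 were called by limma between JNKΔhepa and control livers after BDL. The mean level of the biliary markers was 6.67 to 7.43 in JNKΔhepa BDL livers and 5.47 to 6.39 in control BDL livers, and 1 of 8, Muc1, was higher (2.55, adjusted p = 0.0104). Of the stellate markers, Acta2 was higher (1.35, adjusted p = 0.0276) and Lrat lower (-1.49, adjusted p = 0.0105). These calls were lost without JNKΔhepa BDL liver 1 (all 3), 2 (Muc1 and Acta2) or 3 (Acta2 and Lrat), with an adjusted p of 0.0554 to 0.134. All 24 arrays in one fit ended those of Muc1 (0.057) and Acta2 (0.0811), and Lrat was lost with the prefix as a block (0.0557) and with the replicate block (0.058). Their part in the P450 values was not tested.

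At 8 weeks, with NEMO lost in both groups, most P450 genes had lower values in NEMO/JNK1Δhepa than in NEMOΔhepa livers, but 0 of the 53 were called by limma, as were 0% of all genes. The differences were below 0 for 36 of the 53, with a median of -0.23 beside -0.00 for all genes. At an unadjusted p under 0.05, 11 were lower (20.8%, against 4.19% of all genes) and 1, Cyp4f18, was higher (1.89%, against 3.48%). Without NEMO/JNK1Δhepa liver 2, 7 were lower (against 2.31% of all genes). The 11 included 5 of the 6 Cyp3a genes, of which Cyp3a16 and Cyp3a57 are dim. Cyp3a11 and Cyp3a44 followed each other across the 24 livers (r = 0.95), and some probe sets name several Cyp3a genes at once. Shared hybridisation among the Cyp3a genes was not tested, so they are not separate observations. The identifiers of the NEMO/JNK1Δhepa mice carry one prefix and those of the NEMOΔhepa mice another, so genotype and whatever the prefix stands for cannot be told apart. The mean level of the macrophage markers was 8.58 to 10.80 in NEMO/JNK1Δhepa livers and 8.64 to 9.36 in NEMOΔhepa livers, and their part in these values was not tested.

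Cyp3a25, a drug-metabolising P450 gene of the liver, was at 10.66, 10.09 and 10.06 in NEMO/JNK1Δhepa livers, against 11.38, 11.55 and 11.15 in NEMOΔhepa livers. The groups did not overlap, with a difference of -1.09 ± 0.20 SE (adjusted p = 0.544 by limma), which passed with all 24 arrays in one fit (adjusted p = 0.03). Cyp3a11 was at 11.72, 11.37 and 10.54 in NEMO/JNK1Δhepa livers, against 12.26, 12.12 and 12.25 in NEMOΔhepa livers (-1.0 ± 0.29 SE). Cyp3a44 was at 6.02, 5.77 and 4.04 in NEMO/JNK1Δhepa livers, against 7.27, 6.72 and 7.13 in NEMOΔhepa livers (-1.76 ± 0.51 SE). For both genes NEMO/JNK1Δhepa liver 3 was the lowest of the 24 livers. Cyp2b10 was at 6.16, 4.35 and 4.91 in NEMO/JNK1Δhepa livers, against 7.77, 6.68 and 9.45 in NEMOΔhepa livers (-2.83 ± 0.76 SE, adjusted p = 0.598). Cyp2d9 was at 8.43, 7.32 and 8.44 in NEMO/JNK1Δhepa livers, against 9.04, 9.19 and 9.95 in NEMOΔhepa livers (-1.33). Cyp2r1 differed by -0.63, Cyp1a1 by -1.10, Cyp3a16 by -0.55, Cyp3a57 by -0.43, Cyp2d11 by -0.34 and Cyp2d26 by -0.27.

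BDL and DEN livers of the same genotype were also set side by side. They differ in the injury, in the days since treatment and perhaps in age. In JNKΔhepa mice, 3 P450 genes were lower after BDL than after DEN (5.66%, against 0.313% of all genes), and 0 were higher by limma (0.77% of all genes) with 0 higher at an unadjusted p under 0.05 (7.46%) and 11 lower (20.8%, against 5.98%). Cyp4a14 was at 8.10, 9.35 and 9.56 in JNKΔhepa BDL livers, against 11.47, 11.25 and 11.64 in JNKΔhepa DEN livers, 5.48-fold lower (-2.45 ± 0.37 SE, adjusted p = 0.0376). Cyp1a2 was at 10.45, 10.66 and 10.76 in JNKΔhepa BDL livers, against 12.01, 11.42 and 12.05 in JNKΔhepa DEN livers, 2.29-fold lower (-1.20 ± 0.19 SE, adjusted p = 0.0473). Cyp2d10 was at 8.97, 8.97 and 8.98 in JNKΔhepa BDL livers, against 9.81, 9.53 and 9.76 in JNKΔhepa DEN livers, 1.65-fold lower (-0.72 ± 0.11 SE, adjusted p = 0.0423). The groups did not overlap for any of the 3 genes.

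All 3 of these calls were lost without JNKΔhepa DEN liver 3, the one with high Xist, with an adjusted p of 0.114 for Cyp4a14, 0.127 for Cyp1a2 and 0.125 for Cyp2d10. They were also lost without JNKΔhepa DEN liver 1 (0.0692 to 0.0834) or JNKΔhepa BDL liver 2 or 3 (0.122 to 0.195), and those of Cyp1a2 and Cyp2d10 without JNKΔhepa BDL liver 1 (0.212 to 0.228). Without JNKΔhepa DEN liver 2, 9 P450 genes were lower (17.0%, against 2.60% of all genes) and 1, Cyp1b1, was higher (adjusted p = 0.0183; 1.89%, against 4.44% of all genes), so calls were more frequent over all genes too. The replicate block ended all 3 calls (0.101 to 0.143), all 24 arrays in one fit those of Cyp4a14 (0.15) and Cyp1a2 (0.262), and centred arrays those of Cyp1a2 (0.057) and Cyp2d10 (0.101). Cyp4a31 was at 6.79, 7.57 and 8.04 in JNKΔhepa BDL livers, against 8.91, 9.27 and 9.05 in JNKΔhepa DEN livers (-1.61 ± 0.30 SE, adjusted p = 0.0685). Cyp2a5 was at 9.57, 10.20 and 10.60 in JNKΔhepa BDL livers, against 11.28, 11.57 and 12.08 in JNKΔhepa DEN livers (-1.52 ± 0.30 SE, adjusted p = 0.0763). Nr1h4 (-0.84, adjusted p = 0.0307) was lower, a call lost without any 1 of the JNKΔhepa BDL livers or JNKΔhepa DEN liver 1 or 3 (0.053 to 0.183), and Hmox1 (1.25, adjusted p = 0.0417) was higher, a call lost without any 1 of the JNKΔhepa BDL livers or JNKΔhepa DEN liver 1 (0.0757 to 0.196). The replicate block ended both calls (Nr1h4 0.126, Hmox1 0.108), centred arrays that of Nr1h4 (0.0557) and all 24 arrays in one fit that of Hmox1 (0.347).

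In livers labelled control, 1 P450 gene was lower after BDL than after DEN (1.89%, against 0.739% of all genes) and 1 higher (1.89%, against 1.74%). Cyp2e1 was at 11.65, 12.04 and 11.83 in control BDL livers, against 12.84, 12.60 and 12.58 in control DEN livers, 1.78-fold lower (-0.83 ± 0.14 SE, adjusted p = 0.032 by limma). Cyp4f18 was at 5.76, 5.24 and 5.64 in control BDL livers, against 4.38, 4.59 and 4.66 in control DEN livers, 2.01-fold higher (1.00 ± 0.16 SE, adjusted p = 0.0284). The groups did not overlap for either gene. Both calls were lost without control BDL liver 1 or without any 1 of the control DEN livers (adjusted p of 0.0709 to 0.138), and with the prefix of the mouse identifier as a block, which differs between control BDL livers (Cyp2e1 0.336, Cyp4f18 0.276). All 24 arrays in one fit (0.103 and 0.076) and the replicate block (0.105 and 0.0845) ended both calls as well. Here and below, the prefix block sets control BDL liver 3 alone against the control DEN livers, so it cannot show an effect of the prefix.

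The Cyp4a genes had the widest spread between these control groups. Cyp4a14 was at 4.79, 9.29 and 7.07 in control BDL livers, against 12.07, 11.23 and 11.37 in control DEN livers, a difference of -4.50 ± 0.96 SE that was not called (adjusted p = 0.0588 by limma). Cyp4a31 was at 4.96, 8.08 and 5.90 in control BDL livers, against 9.60, 9.08 and 9.25 in control DEN livers (-3.0 ± 0.68 SE, adjusted p = 0.0685). Control BDL liver 2 was the highest of its group in both genes, and without it both passed (adjusted p = 0.0177 and 0.00663). Without control BDL liver 3, Cyp2d13 (0.0316) and Cyp4b1 (0.0137) passed as lower and Cyp1b1 (0.0212) as higher. At an unadjusted p under 0.05, 16 P450 genes were lower (30.2%, against 8.49% of all genes) and 3 higher (5.66%, against 10.7%). With the prefix as a block 4 were lower (against 3.51% of all genes), and without control DEN liver 1 10 were (7.82%). Centring the arrays moved the median of all genes in this comparison to -0.14.

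Ppara, which encodes the receptor that drives the Cyp4a genes, was at 8.60, 8.34 and 8.44 in control BDL livers, against 9.79, 9.37 and 9.38 in control DEN livers (-1.05, adjusted p = 0.021 by limma). That call was lost without control BDL liver 1 or 2 or control DEN liver 2 or 3 (adjusted p of 0.057 to 0.0756). Of the 10 haem genes, Hmox1 was higher (0.91, adjusted p = 0.0452) and Blvrb, which reduces biliverdin, lower (-0.87, adjusted p = 0.0309), calls lost without any 1 of the 6 livers, apart from control BDL liver 3 for Blvrb (0.0569 to 0.182). In the same comparison 5 of 6 stellate markers were higher, with a mean level of 8.01 to 8.54 in control BDL livers and 6.22 to 6.42 in control DEN livers, as were 3 of 8 biliary markers. The calls of Acta2 and Des and of the biliary Krt7, Epcam and Cftr were each lost without any 1 of the control DEN livers or control BDL liver 1, and, apart from that of Des, without control BDL liver 2, while that of Des was lost without control BDL liver 3 (adjusted p of 0.0526 to 0.187). In JNKΔhepa mice 3 of 6 stellate markers were higher after BDL (8.42 to 8.52 in JNKΔhepa BDL livers and 6.20 to 7.29 in JNKΔhepa DEN livers), each lost without JNKΔhepa DEN liver 3 or any 1 of the JNKΔhepa BDL livers (adjusted p of 0.0554 to 0.22). With the identifier prefix as a block, the calls of Ppara (-1.07, adjusted p = 0.267), Hmox1 (0.417), Blvrb (0.382), Acta2 (0.259), Des (0.341) and Col3a1 (0.11) in control livers were lost, as were those of Krt7 (0.85, adjusted p = 0.433), Epcam (0.88, against 1.64 without the block, 0.341) and Cftr (0.76, 0.396), while those of Col1a1 and Col1a2 held. The replicate block also ended those of Hmox1, Blvrb, Krt7, Epcam, Cftr, Acta2 and Des (0.0518 to 0.125), and all 24 arrays in one fit those of Hmox1, Krt7, Epcam, Cftr and Des (0.0919 to 0.542). Hmox1 and Des were lost with quantile normalization (0.0509 and 0.0792) and with centred arrays (0.0562 and 0.0768) too, and Des with a variance trend (0.0525). In JNKΔhepa livers the replicate block ended all 3 stellate calls (0.0852 to 0.107) and a variance trend those of Col1a2 (0.0605) and Col3a1 (0.0502). The part of these cells in the lower P450 values was not tested.

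The BDL minus DEN differences of the 2 genotypes share no liver. They had the same sign for 37 of the 53 P450 genes (69.8%, against 62.5% of all genes), 28 lower in both and 9 higher in both. Across genes, which are not independent replicates, they correlated at r = 0.78 for the P450 genes and 0.57 for all genes. Without JNKΔhepa DEN liver 3, the sign was the same for 37 again (26 lower and 11 higher in both), against 60.7% of all genes, and r was 0.72 and 0.54. The difference between JNKΔhepa and control livers after BDL minus that after DEN, tested as an interaction, was called for 0 of the 53 by limma (0.0478% of all genes), with 3 at an unadjusted p under 0.05 (5.66%, against 7.11% of all genes). These were Cyp2e1 (0.44 ± 0.18 SE, adjusted p = 0.636), Cyp2j6 (-0.48) and Cyp2d11 (0.52). Without JNKΔhepa DEN liver 3, 0 were called as well, Cyp2e1 was at 0.48 ± 0.19 SE, and Cyp2d9 moved to -1.72 ± 0.62 SE (adjusted p = 0.626). For Cyp4a14 the interaction was 2.05 ± 1.19 SE (adjusted p = 0.761), and 2.14 ± 1.31 SE without JNKΔhepa DEN liver 3, so the larger difference in control livers was not separated from that in JNKΔhepa livers.

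**Figure D5:**
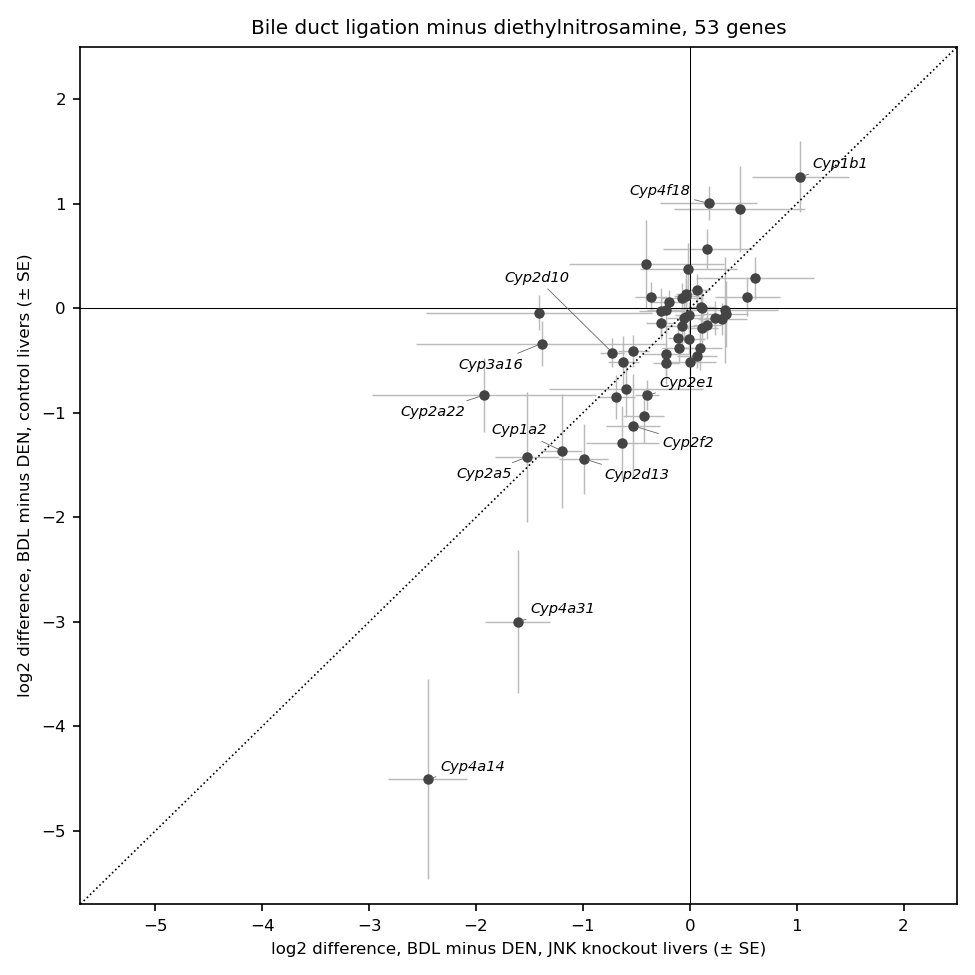
Difference in log2 level between BDL and DEN livers for the 53 P450 genes, in JNKΔhepa mice (horizontal axis, ± SE) and in control mice (vertical axis, ± SE), 3 livers in each group; the dotted line marks equal differences. Cyp4a14 lies furthest from 0, at -2.45 in JNKΔhepa mice and -4.50 in control mice, and Cyp4a31, Cyp2a5 and Cyp1a2 are below 0 in both.

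Some P450 genes followed each other across the 24 livers, which share groups and treatments, so the correlations describe and carry no test. Cyp3a11 and Cyp3a44 correlated at r = 0.95, Cyp2f2 and Cyp2j5 at 0.88, Cyp2d13 and Cyp2d40 at 0.88, and Cyp4a14 and Cyp4a31 at 0.85. Outside the 53, the genes most like Cyp4a14 over the 24 livers were Cyp2c37 (0.86), Cyp2c29 (0.86), Glul (0.84), Ifrd2 (0.83) and Cyp2c50 (0.83), of which Glul is the glutamine synthetase gene of pericentral hepatocytes. For Cyp2b9 they were Mrps12 (0.77), Sdhc (0.76), Tubg1 (0.75), Txnl1 (0.74) and Ndufa5 (0.71). For Cyp3a16 they were Olfr3 (0.75), Ripply3 (0.72), Sult3a2 (0.72), Xist (0.71) and Cux2 (0.70), a list that rests on the few livers in which Cyp3a16 was high.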

How the data were processed

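Total RNA of 24 whole mouse livers, 8 groups of 3, was hybridised to Affymetrix whole-transcript arrays. The deposited files hold log2 levels from RMA (background correction, quantile normalization and probe summary), as named in the submitters' processing notes. Its program and chip definition, and which arrays were normalised jointly, were not stated. There was no detection call, and precision is limited by the number of arrays. Of 35556 probe sets, 21218 had 1 gene symbol, 1881 several and 12457 none in the platform annotation; 21185 matched the RefSeq gene table by Entrez identifier. A gene with several probe sets (1386 of 18820) was represented by the one with the highest mean over 24 arrays. Log2 values were used as deposited, without a filter.

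Linear models were fitted by limma 3.58.1 (R 4.3.3, lmFit and eBayes, two-sided tests), each comparison on its own 6 arrays and the interaction on 12, in 7 comparisons. P-values were adjusted by Benjamini-Hochberg over all 18820 genes and called under 0.05. An exact permutation test of 3 against 3 livers cannot give a p below 0.1. The code was tested on simulated data. Alternatives were a filter on dim genes, quantile normalization, centred arrays, all 24 arrays in one fit, the mean of all probe sets, a variance trend with robust estimation, a replicate block, the mouse identifier prefix as a block, and leaving out each liver. For centred arrays, the median subtracted was taken over the 18820 genes and not over all probe sets. Same-numbered livers deviated together (r above 0.1 in all 3 pairs) in 0 of the comparisons, so the numbers were not taken as pairs. JNKΔhepa and control livers 1 and 2 after DEN did so, at 0.359 and 0.301.

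All 53 genes are accounted for. In each comparison the called genes whose groups do not overlap were named, at most 15 in each direction, with the 5 of smallest unadjusted p where fewer were called, and genes of the role, pathway and marker lists could be named too. The genes most like a P450 gene are the 5 with the highest Pearson r over 24 livers, for the most variable gene of Cyp2b, Cyp3a and Cyp4a. Promoter windows are from RefSeq (GRCm38.p6) and were searched with Python 3.11.15 and Biopython 1.88. The genes and lists were chosen with earlier results of these data known.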

Additional observations from a re-analysis of the deposited data

Results flagged for a closer look

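A probe set outside the 53 genes, because it names both Cyp2a5 and Cyp2a4, differed between the 52-week groups. It was at 11.36, 11.89 and 11.86 in NEMO/JNKΔhepa livers, against 10.11, 10.54 and 10.23 in control livers. The log2 difference of 1.41 ± 0.18 SE had an adjusted p of 0.00125 by limma over the 1881 probe sets with several symbols. Cyp2a4 is a female-biased testosterone hydroxylase gene, and the probe set cannot tell it from Cyp2a5.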

How the results depend on the processing

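Over 14 counts of P450 genes called higher or lower, 163 of 200 alternative settings left the count within 1.5 times and 37 did not. Of 364 settings over single called genes, 273 kept the direction and the call, 91 lost the call and 0 turned the direction. At 52 weeks, fitting all 24 arrays together gave 3 higher genes in place of 6, and centring the arrays on the median gave 31 lower genes in place of 16. Leaving out 1 liver gave 4 to 6 higher and 11 to 15 lower genes. After BDL, JNKΔhepa against control livers, the 1 lower gene became 0 with all 24 arrays, with the replicate block and with the identifier prefix as a block, a variance trend with robust estimation gave 1 higher gene, and leaving out 1 liver gave 0 to 3 higher and 0 to 1 lower. At 8 weeks all 24 arrays gave 1 lower gene. Between BDL and DEN control livers, all 24 arrays gave 0 higher and 3 lower genes, the replicate block and the prefix block gave 0 of each, and leaving out 1 liver gave 0 to 2 higher and 0 to 3 lower. In JNKΔhepa livers, all 24 arrays gave 1 lower gene, the replicate block 0, and leaving out 1 liver 0 to 1 higher and 0 to 9 lower. DEN and the interaction stayed at 0 under every setting by limma, also without any 1 liver, as did 8 weeks without any 1 liver. The cause was not tested.

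Replicate numbers were not shown to pair livers. Same-numbered JNKΔhepa and control livers after DEN correlated at 0.359 and 0.301 for numbers 1 and 2, each best with its own number. Number 3 was at 0.045 and was not. The design does not say what these livers share, and with the replicate block 0 P450 genes were called there. At 52 weeks same-numbered livers correlated at 0.017 to 0.035, each best with its own number, which is a hint from the data and not from the design, and the replicate block gave 6 higher and 15 lower genes, among them Cyp2b9 (adjusted p = 0.00108), Cyp4a14 (0.0318) and Cyp2a22 (0.0298), which were not called without it. The prefix block could not be fitted for BDL against DEN in JNKΔhepa livers. The levels of the 19 dim genes carry no detection call.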

Other observations

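Some P450 genes were high in single livers. Cyp4f37 was at 6.87 in JNKΔhepa DEN liver 2 and at 2.20 to 3.14 in the other 23 livers. The female-biased Cyp2b13 was at 6.61 in 52-week control liver 2, the liver with the highest Cyp2b9 (10.68), and at 5.93 in NEMOΔhepa liver 1. Cyp2d12 was at 5.01 in NEMO/JNK1Δhepa liver 1 and at 4.52 in NEMOΔhepa liver 1, above the 2.20 to 3.45 of the other 22 livers. Cyp3a16 was at 6.41 in NEMO/JNKΔhepa liver 2, where Xist was at 2.61, unlike JNKΔhepa DEN liver 3. The probe set that names Cyp4v3 and its neighbour Klkb1 was lower in NEMO/JNKΔhepa than in 52-week control livers (-1.13, adjusted p = 0.000512 by limma).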
